A study of Mus musculus with 20 samples.

Results

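Histidine ammonia-lyase, Hal, was followed with 4 other enzymes that use histidine or its products, Amdhd1, Ftcd, Hdc and Hnmt, on arrays of whole mouse trachea. Their members were all non-control probes whose gene name in the scanner output was one of these 5 symbols, which gave 5 of the 27962 gene names and 6 of the 41174 probes on the array: 1 each for Hal, Ftcd, Hdc and Hnmt, and 2 for Amdhd1. Hal itself was chosen by a measured value, the size of its difference between Myd88KO and wild-type tracheas on these same arrays, among transcripts that the study had not called changed with injury. Its levels in the 4 groups are therefore given as a description with no test, and the question put to the data was whether the other enzymes shared its difference. The series held 20 arrays, each of 1 whole trachea from a mouse of 4 months, with 5 in each of 4 groups. WT-control and WT-injury were C57/Bl6 mice, and KO-control and KO-injury lacked Myd88, the adaptor that most Toll-like receptors and the interleukin-1 receptor family signal through. Both injury groups had received 2% polidocanol, a detergent that strips the airway epithelium, 3 days before the trachea was taken, and both control groups were uninjured. The knockouts, back-crossed to C57/Bl6JOlaHsd for several generations, were bred among themselves and the wild-type mice came from a separate colony, so the missing gene and the colony cannot be told apart. A whole trachea mixes epithelium, glands, cartilage, muscle and leukocytes, so that fewer cells of a type and less RNA per cell cannot be told apart either.

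Hal takes the amino group off histidine as ammonia and leaves urocanate. Urocanase (Uroc1), imidazolonepropionase (Amdhd1) and formimidoyltransferase cyclodeaminase (Ftcd) then carry urocanate on to glutamate, with the last carbon passed to tetrahydrofolate. The pathway is known best from liver, and Hal also from the upper epidermis, where urocanate builds up because the next enzyme is lacking. Histidine decarboxylase (Hdc) draws on the same amino acid to make histamine, the mediator stored by mast cells and basophils, and histamine N-methyltransferase (Hnmt) inactivates histamine inside cells.

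Hal and Amdhd1 are next to each other on mouse chromosome 10, in the order Cdk17, Elk3, Lta4h, Hal, Amdhd1, Ccdc38, Snrpf in RefSeq on GRCm38.p6. The mean levels of Hal and Amdhd1 lay on opposite sides in the 2 genotypes, though Amdhd1 did not pass the test given below. The 250 bases before the start of Hal, Amdhd1 and Ftcd, the members that break histidine down, are therefore shown. They come from RefSeq on GRCm38.p6 and run 5′ to 3′ on the strand of the gene: chr10:93488518-93488767 on the plus strand for Hal, chr10:93540034-93540283 on the minus strand for Amdhd1, and chr10:76575398-76575647 on the plus strand for Ftcd. Capitals mark matches on either strand. The letters searched for the core of the box that binds TBP were TATAA. Those for a box that the factor Sp1 is known to bind were GGGCGG, and those for the box bound by NF-Y were CCAAT.
Hal: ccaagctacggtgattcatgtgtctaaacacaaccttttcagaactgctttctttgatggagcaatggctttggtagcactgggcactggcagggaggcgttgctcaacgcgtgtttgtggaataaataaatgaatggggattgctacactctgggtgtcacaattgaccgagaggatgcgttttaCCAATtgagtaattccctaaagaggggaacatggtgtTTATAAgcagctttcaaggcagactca
Amdhd1: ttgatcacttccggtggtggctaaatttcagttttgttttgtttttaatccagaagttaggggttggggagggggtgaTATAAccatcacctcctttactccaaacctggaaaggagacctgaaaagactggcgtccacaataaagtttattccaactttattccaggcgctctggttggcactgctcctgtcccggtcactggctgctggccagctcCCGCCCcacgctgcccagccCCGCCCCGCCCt
Ftcd: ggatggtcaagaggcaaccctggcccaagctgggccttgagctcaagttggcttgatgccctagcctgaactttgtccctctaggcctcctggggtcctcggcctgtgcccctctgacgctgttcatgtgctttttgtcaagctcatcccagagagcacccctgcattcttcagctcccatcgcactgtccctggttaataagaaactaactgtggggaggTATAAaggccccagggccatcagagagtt
The window of Hal holds TATAA from 26 to 22 bases before the start, where it overlaps the same core on the other strand, and CCAAT from 64 to 60 bases before it. The window of Amdhd1 holds TATAA much farther out, from 172 to 168 bases before the start, and 3 Sp1 boxes on the opposite strand that all lie within 32 bases of the start, the last pair overlapping by 1 base. Ftcd has TATAA from 29 to 25 bases before its start. In the windows of the histamine enzymes the letters searched were found once each, GGGCGG for Hdc from 48 to 43 and CCAAT for Hnmt from 238 to 234 bases before the start. Of all 32817 windows of this length, 22.79% hold TATAA, 32.72% GGGCGG and 33.83% CCAAT. The NF-kB consensus, held by 7.249%, was in none of the 5.

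Between 57.5% and 67.8% of spots were well above background on each array, and within a group every pair of arrays correlated at 0.92 or more over the tested probes. Club cell, ciliated cell and cartilage markers were all measured (5 of 5, 6 of 6 and 6 of 6 genes tested), and of 7 liver markers 2 were. One wild-type uninjured array, replicate 3, stood apart with a summed level, in multiples of the 75th percentile of the array, of 956 for 11 markers of stratified squamous epithelium, against 16.4 to 26.6 on the other 4 and 16.4 to 96.5 over the remaining arrays of the series. The Myd88 probe read 2.08 in WT-control and 1.86 in KO-control on a log2 scale that sets the 75th percentile of each array to 0, and 2.65 and 1.89 in WT-injury and KO-injury. Whether this probe lies in the deleted part of Myd88 is not known here, so it is no check of the genotype labels. Probes that the scanner software marked as well above background on 10 or more of the 20 arrays were tested, and one was called at an adjusted p below 0.01 in limma over all 26063 tested probes. Of the 6 member probes 4 were tested, for Hal, Amdhd1, Hdc and Hnmt, and the second Amdhd1 probe and the Ftcd probe were not.

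Hal was near background in wild-type tracheas and far above it in every Myd88KO trachea. Its probe lies at 93075295 to 93075354 on chromosome 10 in the array's own positions, whose genome build is not given in the sources used here. In WT-control the log2 levels of replicates 1 to 5 were -5.47, -6.31, -4.73, -4.58 and -4.77, with 2 of the 5 arrays well above background. In KO-control they were 1.64, 0.95, 0.82, 0.48 and 1.22, with all 5 above background. The lowest Myd88KO array thus lay far above the highest wild-type array, as in scanner intensities, which ran from 10.6 to 35.3 in WT-control and from 1018 to 2020 in KO-control. The means were -5.17 ± 0.72 and 1.02 ± 0.44 (SD, n = 5), a difference of 6.19 on the log2 scale, or 73.1-fold with the dim wild-type values taken as measured. Hal passed the filter on low values through its 10 Myd88KO arrays and was chosen on this contrast, so no call is given for it.

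The injured tracheas gave Hal nearly the same distance between genotypes. Replicates 1 to 5 read -4.18, -3.75, -5.11, -4.25 and -3.66 in WT-injury and 1.82, 2.56, 1.38, 2.32 and 1.30 in KO-injury. Well above background were 4 of the 5 WT-injury arrays, at scanner intensities of 22.9 to 65.3 over the group, and all 5 KO-injury arrays. The genotypes again did not overlap, and the difference of their means (-4.19 ± 0.57 and 1.88 ± 0.56, SD, n = 5) was 6.07, or 67.1-fold on the same terms. Against this distance the shift with injury was small: the mean was 0.98 higher after injury in wild-type and 0.86 higher in Myd88KO. Injured and uninjured arrays overlapped in both genotypes. Hal was chosen among transcripts not called changed with injury, so a small shift, and a like distance in injured tracheas, was favoured by the choice. With the normexp background correction the wild-type shift was 0.26. The 4 groups thus stood in the order WT-control, WT-injury, KO-control, KO-injury, with both neighbouring pairs of one genotype overlapping and the wild-type and Myd88KO pairs wide apart. Each slide carried 1 array of every group. On the 5 slides the Myd88KO array exceeded the wild-type array by 5.06 to 7.26 without injury and by 4.96 to 6.57 with it. The size rests on how dim signals are treated, since with normexp the differences were 4.06 and 4.63.

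**Figure D1:**
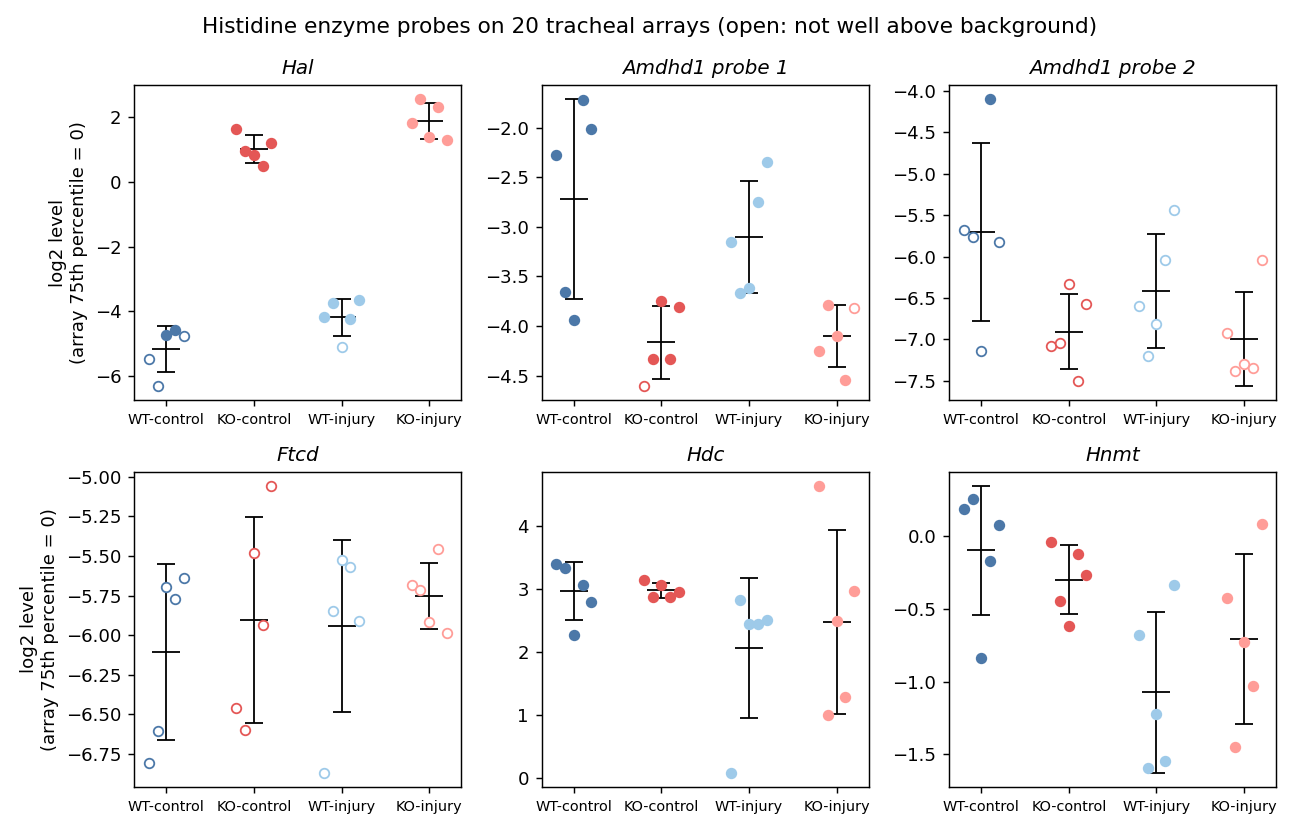
Log2 level of each member probe (y axis, the 75th percentile of each array set to 0) on the 20 arrays, 5 in each of 4 groups (x axis); filled points were well above background, open points were not, and the black marks give mean ± SD. Hal separates into wild-type arrays at or under -3.66 and Myd88KO arrays at or over 0.48, while no other probe parts all wild-type from all Myd88KO arrays.

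Markers of stratified squamous epithelium and of liver, tissues known for Hal, were read beside it. Of 11 squamous markers 9 were tested and 0 were called in limma between uninjured genotypes (0 with an unadjusted p under 0.05). That test kept WT-control replicate 3, and the median difference was -0.71, so the count of 0 does not show equal levels. Without replicate 3 the summed level ran from 16.4 to 26.6 in WT-control, and it ran from 23.3 to 36.9 in KO-control. WT-control replicate 3, with a sum of 956, had a Hal level of -4.73. In the injured groups that sum ran from 24.3 to 87.4 in wild-type and from 25.5 to 96.5 in Myd88KO. Of the liver markers Alb, Apoa1, Cps1 and Otc missed the filter, and the 6 on the array summed to 0.32 to 0.40 in WT-control, 0.34 to 0.52 in KO-control, 0.37 to 0.65 in WT-injury and 0.31 to 0.42 in KO-injury. The part of either tissue in the Hal values was not tested.

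Amdhd1, the third step of the branch, did not rise with Hal: its levels lay lower in Myd88KO, without passing the test. The first of its 2 probes, well above background on 18 arrays (chromosome 10, 93082614 to 93082673, 7.32 kb from the Hal probe in the array's positions) read -2.27, -3.65, -3.94, -1.72 and -2.02 in WT-control and -4.60, -4.33, -3.75, -4.33 and -3.80 in KO-control. The means were -2.72 ± 1.01 and -4.16 ± 0.37 (SD, n = 5), a difference of -1.44 with a standard error of 0.37 and an adjusted p of 0.125 (unadjusted 0.00096). Wild-type replicates 2 and 3 lay close to the highest knockouts and the other 3 wild-type arrays well above, and the groups overlapped. The difference would have been called with array weights (-1.75, adjusted p = 0.0072), and it was also -1.75 without WT-control replicate 3, the array rich in squamous markers, with an adjusted p of 0.018. With normexp it was -0.73 (adjusted p = 0.361), and by the methods' one-way test its adjusted p was 0.418. On the slides it ran from -2.61 to 0.19 and was negative on 4 of 5.

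After injury Amdhd1 kept that order. The levels were -3.15, -3.66, -3.62, -2.75 and -2.35 in WT-injury and -4.25, -3.79, -4.10, -4.55 and -3.82 in KO-injury, and no KO-injury array reached the lowest WT-injury array. Such a gap between injured genotypes was found at 1.96% of tested probes (2.51% between uninjured ones), and the difference of -0.99 (standard error 0.37) had an adjusted p of 0.258. With normexp it was -0.44 (adjusted p = 0.507). With injury itself Amdhd1 moved by -0.39 in wild-type (adjusted p = 0.548) and 0.06 in Myd88KO (adjusted p = 0.947). The second probe, 93083323 to 93083382 on the same chromosome, was well above background on 1 array, WT-control replicate 4, which was also the highest for the first probe. Its means of -5.70, -6.91, -6.42 and -7.00 in WT-control, KO-control, WT-injury and KO-injury are levels at background and were not tested.

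The remaining steps of the branch gave little signal in trachea of either genotype. The Ftcd probe (chromosome 10, 76245143 to 76245202) was well above background on 0 of the 20 arrays. Its group means lay between -6.11 and -5.75 and its scanner intensities between 4.94 and 21.1, so no difference was measurable. Uroc1, the enzyme right after Hal, was well above background on 6 arrays and missed the filter. Of the 4 genes of histidine breakdown, Hal and Amdhd1 could thus be compared between genotypes, and Uroc1 and Ftcd could not.

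Hdc, which competes with Hal for histidine, was detected on all arrays and had nearly the same mean level in both uninjured genotypes. Its probe lies on chromosome 2, 126334633 to 126334692. WT-control read 3.41, 3.34, 2.27, 3.07 and 2.79 and KO-control 3.15, 2.88, 3.08, 2.87 and 2.97, the knockouts lying inside the wild-type range. The means, 2.98 ± 0.46 and 2.99 ± 0.12 (SD, n = 5), differed by 0.01, with a 95% interval from -1.14 to 1.17 and an adjusted p of 1.00. The interval leaves room for a difference of about 1 on the log2 scale either way, and none near that of Hal. Its width comes from one spread shared by all 4 groups, and the injured groups varied more (SD 1.12 in WT-injury and 1.46 in KO-injury).

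After injury the levels of Hdc were spread more widely. WT-injury read 0.09, 2.82, 2.45, 2.46 and 2.51, and KO-injury 4.64, 1.00, 2.50, 1.29 and 2.98. The lowest and the highest of all 20 levels were both from replicate 1 after injury, in wild-type and in Myd88KO, and the standard deviations were 1.12 and 1.46. Between injured genotypes Hdc differed by 0.42 (95% interval -0.74 to 1.58, adjusted p = 0.805), and this fell to -0.08 without WT-injury replicate 1 and to -0.12 without KO-injury replicate 1. With injury it moved by -0.91 in wild-type (adjusted p = 0.314) and by -0.51 in Myd88KO (adjusted p = 0.663).

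Markers of ciliated cells were spread widely on the same injured arrays. The summed level of 6 ciliated cell markers, in multiples of the 75th percentile of each array, ran from 27.7 to 71.7 in WT-control, 38.9 to 51.3 in KO-control, 4.51 to 58.2 in WT-injury and 4.49 to 167 in KO-injury. The array with the highest sum of all, KO-injury replicate 1, had the highest Hdc level, and WT-injury replicate 1, at 4.51, had the lowest. WT-injury replicate 5 departed from this, with a low sum of 6.53 beside an Hdc level of 2.51. The lowest sum of all, 4.49 on KO-injury replicate 4, went with an Hdc level of 1.29, which was not the lowest. WT-injury replicate 4 had the highest sum of its group, 58.2, beside an Hdc level of 2.46. All 6 of these markers were well above background in the injured groups, and 1, the axonemal dynein Dnah5, was called lower after injury in wild-type (-3.94, adjusted p = 0.0032). The 9 mast cell markers summed to 3.35 to 5.47 in WT-control, 3.05 to 8.50 in KO-control, 2.32 to 5.70 in WT-injury and 2.81 to 5.71 in KO-injury, ranges that overlapped throughout. Of the 7 mast cell markers tested 0 were called in limma between genotypes, uninjured or injured, beside 0.384% and 0.38% of all tested probes. At an unadjusted p under 0.05 there were also 0, beside 5.59% and 12.5%, so these counts do not show equal levels. The part of either cell type in the Hdc values was not tested.

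**Figure D2:**
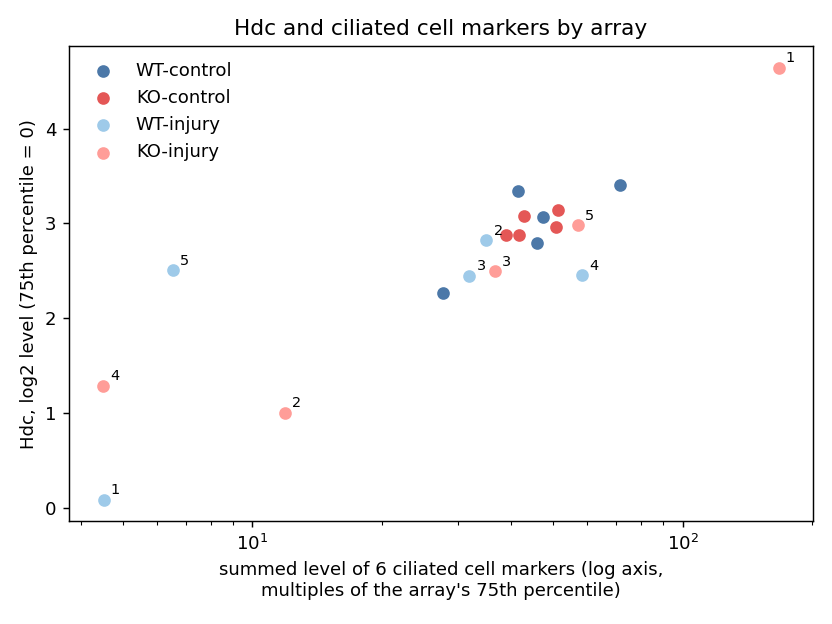
Log2 level of Hdc (y axis) against the summed level of 6 ciliated cell markers (x axis, log scale) on the 20 arrays, coloured by group, with replicate numbers beside the injured arrays. The 10 uninjured arrays lie close together, while injured arrays reach from 0.09 to 4.64 in Hdc and from 4.49 to 167 in the marker sum.

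Hnmt, the enzyme that inactivates histamine, overlapped between genotypes and lay lower after injury in wild-type without passing the test. Its probe lies on chromosome 2, 24010647 to 24010706. Levels were 0.19, 0.26, -0.84, -0.17 and 0.08 in WT-control and -0.04, -0.44, -0.62, -0.12 and -0.27 in KO-control, a difference of -0.20 (95% interval -0.80 to 0.40, adjusted p = 1.00). They were -0.68, -1.59, -1.22, -1.54 and -0.33 in WT-injury and -0.42, -1.45, -0.73, -1.03 and 0.09 in KO-injury, a difference between genotypes of 0.36 (95% interval -0.24 to 0.96, adjusted p = 0.639). Both pairs of genotypes overlapped.

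With injury Hnmt differed by -0.98 in wild-type, with a standard error of 0.29 and an adjusted p of 0.030 in limma, which misses the threshold used here. The injured array was lower than the uninjured one on all 5 slides, by 0.39 to 1.85 on the log2 scale, although the 2 groups overlapped through WT-control replicate 3. In Myd88KO the same difference was -0.41 (standard error 0.29, adjusted p = 0.458), and the 2 responses differed by 0.57 (95% interval -0.28 to 1.41, adjusted p = 0.621). Of the 3 tested members other than Hal, 0 were called with injury in wild-type, where 5.26% of all tested probes were, and 0 in Myd88KO, where 0.376% were. At an unadjusted p under 0.05 these counts were 1, Hnmt, and 0, beside 26.4% and 19.5% of all tested probes. In the difference of the injury responses limma called 0 of these members, against 0% of all tested probes, and 0 of them had an unadjusted p under 0.05, against 10.4%.

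In the genotype contrasts, too, 0 of these 3 members were called by limma, uninjured (background 0.384%) or injured (background 0.38%), and 1 of 3, Amdhd1, had an unadjusted p under 0.05 in each, beside 5.59% and 12.5% of all tested probes. The median difference of the 3 was -0.20 without injury, beside 0.04 for all tested probes, and 0.36 with injury, beside -0.03. The means of Amdhd1 and Hal differed in opposite directions between genotypes, that of Amdhd1 without a call. Hdc and Hnmt had unadjusted 95% intervals that held 0. The uninjured difference of Hal, 6.19, lay far above the 95% interval of each: the upper bounds were -0.67 for Amdhd1, 1.17 for Hdc and 0.40 for Hnmt. The Hal difference was not shared at that size by the other enzymes that could be measured. Hal was chosen for that size, however, and only 3 of the 26063 tested probes differed more between uninjured genotypes. Few genes of any kind could therefore have matched it.

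A wider set of genes around histidine held none that was called between genotypes. It comprised 55 further genes in 8 lists, of which 53 were on the array and 46 tested. The lists covered histidine breakdown, histamine synthesis and breakdown, histamine transport and receptors, carnosine and other dipeptides, and histidyl-tRNA synthetases. They further covered histidine transport, folate one-carbon metabolism, and enzymes that release, transfer or bind the amino nitrogen of amino acids. Each gene was taken by its brightest tested probe. Of the 46, limma called 0 between uninjured genotypes and 0 between injured ones, with 5 and 9 at an unadjusted p under 0.05 (10.9% and 19.6%, beside 5.59% and 12.5% of all tested probes), and the replicate block, array weights and the methods' one-way test also called 0. The median differences were 0.12 and -0.03, beside 0.04 and -0.03 over all tested probes. Without injury the differences ran from -0.45 to 1.34, all far from the 6.19 of Hal. The highest was that of Aspg, an asparaginase, at 1.34 (standard error 0.37, adjusted p = 0.176), and after injury it was 0.81 (adjusted p = 0.371). Among the histamine receptors and transporters, where 3 of 7 genes were tested, Hrh2 differed by 0.67 without injury (adjusted p = 0.923). Carns1, which makes carnosine from histidine, differed by 0.12, and the cytosolic histidyl-tRNA synthetase Hars by 0.18, both with an adjusted p of 1.00.

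**Figure D3:**
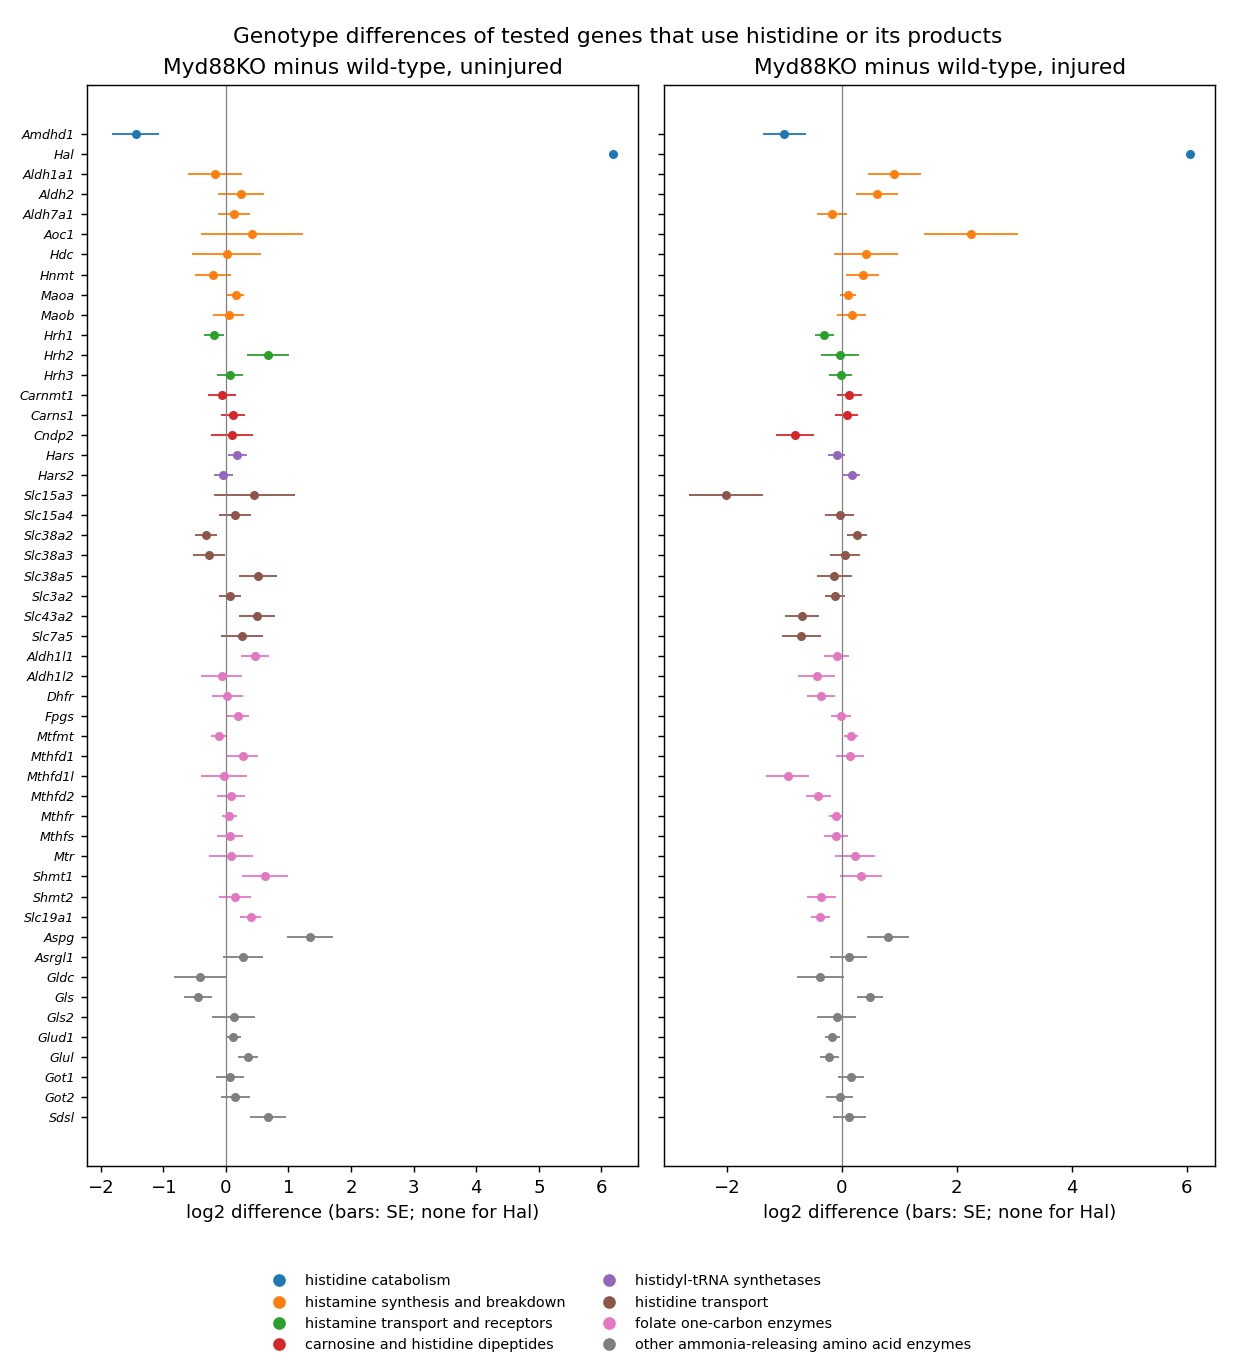
Log2 difference between Myd88KO and wild-type (x axis) for each tested gene of the histidine lists (y axis), uninjured on the left and injured on the right. Bars are standard errors from limma, and Hal, chosen for this difference, carries none. Hal stands at 6.19 and 6.07, and the other genes lie between -1.44 and 1.34 on the left and between -2.01 and 2.25 on the right.

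With injury in wild-type tracheas, single genes of the histamine, transport and folate lists changed. Of the 46 genes 3 were called higher and 2 lower, 10.9% against 5.26% of all tested probes, while in Myd88KO limma called 0 of them, against 0.376%. At an unadjusted p under 0.05 the shares were 30.4% in wild-type, beside 26.4% of all tested probes, and 23.9% in Myd88KO, beside 19.5%. The count of 5 in wild-type was 4 with the replicate block, 6 with array weights and 3 by the methods' one-way test. The Myd88KO count of 0 became 3 with array weights, and stayed 0 with the replicate block and by the methods' one-way test. Aoc1, the diamine oxidase that breaks histamine down outside cells, fell by 5.58 on the log2 scale (standard error 0.82, adjusted p = 0.00046). In Myd88KO its difference was -3.75 (adjusted p = 0.020). Aldh1a1, an aldehyde dehydrogenase that can act on the aldehydes of such oxidases, fell by 2.06 in wild-type (adjusted p = 0.0071) and differed by -0.98 in Myd88KO (adjusted p = 0.228). The median difference of the 8 histamine enzymes, Hdc and Hnmt among them, was -0.94 in wild-type and -0.49 in Myd88KO, beside 0.00 and -0.07 over all probes.

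The 3 genes that rose in wild-type belong to transport and folate metabolism. Slc15a3, a lysosomal carrier of histidine and peptides, rose by 3.54 (adjusted p = 0.0018), with a difference of 1.08 in Myd88KO (adjusted p = 0.371). The mitochondrial folate enzymes Mthfd2 and Mthfd1l rose by 0.97 (adjusted p = 0.0077) and 1.63 (adjusted p = 0.0067), and their differences in Myd88KO were 0.48 and 0.72 (adjusted p = 0.243 and 0.291). None of these responses was shown to differ between genotypes, since limma called 0 of the 46 genes in the difference of the injury responses, with 6 at an unadjusted p under 0.05 (13.0%, beside 10.4% of all tested probes). Markers of other cells moved with injury on the same arrays. Of 5 club cell markers, all tested, 3 were called lower in wild-type and 2 in Myd88KO (median differences -2.24 and -2.36), and their summed level ran from 1539 to 2767 in WT-control, 1632 to 2570 in KO-control, 716 to 892 in WT-injury and 624 to 1557 in KO-injury. Of 6 macrophage markers, all tested, 3 were called higher in wild-type and 0 in Myd88KO (median differences 1.79 and 1.00), with summed levels of 299 to 533, 274 to 477, 322 to 511 and 277 to 453 in the same order of groups. Their part in the differences with injury was not tested.

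**Figure D4:**
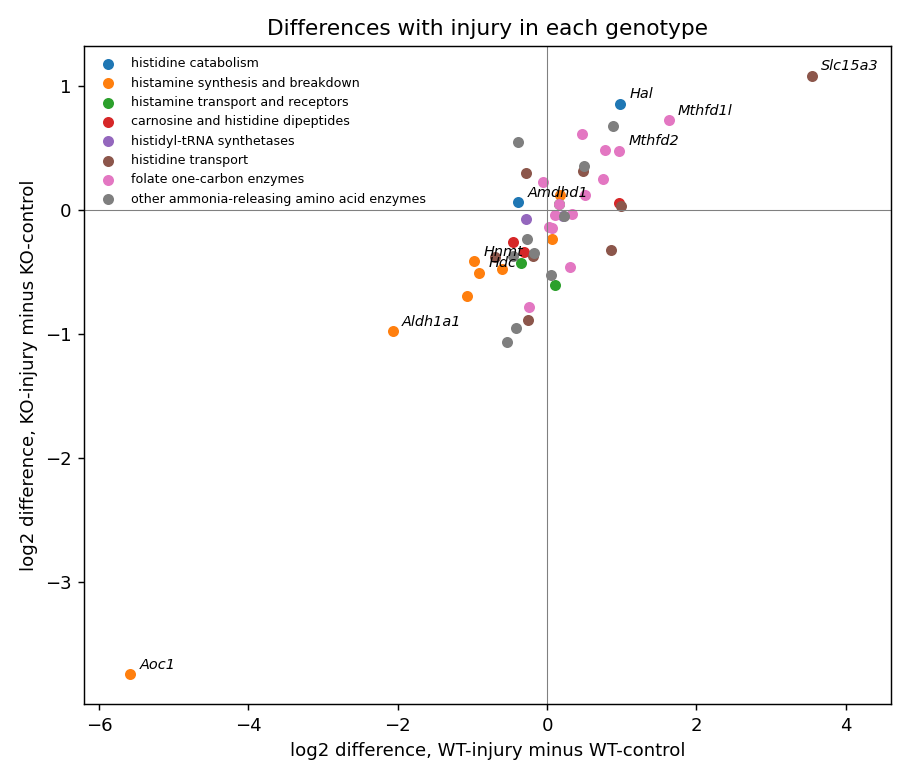
Log2 difference with injury in wild-type (x axis, WT-injury minus WT-control) and in Myd88KO (y axis, KO-injury minus KO-control) for the 50 tested genes of the histidine lists, coloured by list, with the members and the genes called in wild-type named. Aoc1 lies farthest down in both genotypes (-5.58 and -3.75) and Slc15a3 farthest up in wild-type (3.54).

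Most probes around Hal on chromosome 10 were not called between genotypes. Of 42 tested probes, for 22 genes, within 2 Mb of the Hal probe in the array's positions, 3 were called between uninjured genotypes, 7.14% against 0.384% of all tested probes, and 2 between injured ones, 4.76% against 0.38%. Netrin 4 (Ntn4), a secreted guidance and basement membrane protein 229 kb away, was higher in Myd88KO by 1.87 without injury and 2.40 with it. A probe for Vezt, an adherens junction protein, was lower by 1.77 and 1.96, although 2 other Vezt probes were not called. Fgd6, an exchange factor for small GTPases, was higher by 1.16 without injury (adjusted p = 0.0059), and with injury by 0.63 with no call (adjusted p = 0.201). Lta4h, the leukotriene A4 hydrolase gene right before Hal, differed by -0.28 in both conditions (adjusted p = 1.00 and 0.744). Elk3, next in that direction, differed by 0.28, and Snrpf, on the far side of Amdhd1, by -0.12 at its first probe without injury, both with an adjusted p of 1.00. The 4 probes of Cdk17, farther out past Elk3, ran from -0.83 to -0.09, none of them called. The median of the 42 probes was -0.09, beside 0.04 over all tested probes.

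**Figure D5:**
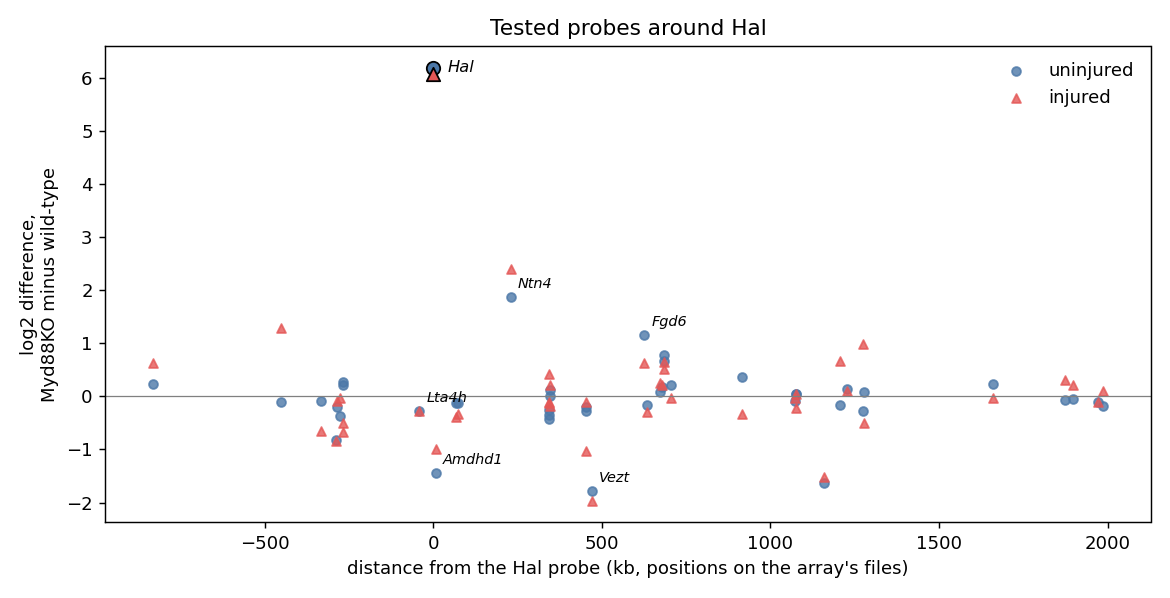
Log2 difference between Myd88KO and wild-type (y axis), uninjured (circles) and injured (triangles), for the tested probes within 2 Mb of the Hal probe against their distance from it (x axis, kb). Hal stands alone at 6.19 and 6.07 (outlined); Ntn4 and Fgd6 lie above 0 and Amdhd1 and 1 Vezt probe below.

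Across the 20 arrays the probes most like Hal were those of other genes with a wide gap between genotypes, on other chromosomes. Hal was chosen for such a gap, so that its nearest probes share one follows from the choice. Likeness was the root-mean-square distance between levels scaled to a standard deviation of 1, whose median over 25841 probes was 1.38. The 5 nearest were Mela (distance 0.22, chromosome 8), Itga9 (0.23, chromosome 9), Cuedc1 (0.35, chromosome 11), the transcript AK047604 (0.40, chromosome 2) and the unnamed transcript TC1485374 (0.40, chromosome 7). Without and with injury their differences between genotypes were 9.84 and 9.27 for Mela, 3.26 and 2.87 for the integrin gene Itga9, and 3.15 and 3.22 for Cuedc1. Those of the other probes were 2.47 and 2.51 for AK047604 and 3.85 and 3.50 for TC1485374. The other tested members, Amdhd1, Hdc and Hnmt, had no gene of the histidine lists among their nearest 5. Amdhd1 lay nearest to Zcchc3, Sdha, Anxa6, TC1415719 and 5430405H02Rik (0.60 to 0.65), farther off than the nearest probes of the other members. Hdc was nearest to 4933407L21Rik, Fbxo36, Ankrd42, 1700029J07Rik and Efhb (0.35 to 0.41), and Hnmt to Eya4, Gca, Emc7, Vamp4 and TC1415519 (0.27 to 0.32).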

How the data were processed

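Total RNA of 20 whole tracheas was amplified, labelled with Cy3 and hybridised by the authors to 1-colour Agilent mouse arrays, and spots were read with Agilent Feature Extraction 9.5.1.1. The deposited intensity is the processed signal, already background-subtracted. The deposited value table, also intensity per the file headers, equalled it within a ratio of 0.995 to 1.005 and served as an alternative. Here log2 signals were centred on the 75th percentile of each array, outlier spots dropped, spots of a probe averaged, and all 4 groups fitted in limma 3.58.1 (R 4.3.3) with Benjamini-Hochberg adjustment. Precision is set by 5 arrays a group. Each slide held 1 array of every group, all with 1 replicate number, and 2 scan days were used; deviations of same-numbered arrays correlated at 0.25 to 0.48 between uninjured genotypes, and at under 0.1 for at least 1 pair in the other contrasts. The fit was tested on simulated data. Alternatives covered background correction, scaling, filter, blocks, weights, threshold and single arrays.

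Members, gene lists and tests were chosen with earlier results of these data known. The genes named were the members, list genes called in any contrast or else the one differing most between uninjured genotypes, called probes and nearest genes around Hal, and the 5 probes nearest to each member. Basophil, neutrophil, macrophage, liver, thyroid, club cell, basal cell and cartilage markers were also read. Of their genes 0 were called between uninjured genotypes, beside 0.384% of all tested probes, which does not show equal levels. The 7 neutrophil markers tested had a median difference between genotypes of -1.69 without injury and -2.91 with it. The 10 on the array summed to 347 to 612 in WT-control, 441 to 721 in KO-control, 479 to 656 in WT-injury and 373 to 693 in KO-injury. For macrophage markers the medians were 0.05 and -0.81. The labels give 600 ng of RNA per array and intratracheal polidocanol, while the study's methods describe another amount and the oropharyngeal route.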

Additional observations from a re-analysis of the deposited data

Results flagged for a closer look

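The 6 member probes in 4 groups gave 24 groups of 5 arrays, each checked for an array far from the other 4, which chance alone gives in about 1 of 20 groups. There were 2, both at replicate 1 of WT-injury. Its Hdc level of 0.086 was followed by 2.45 in the next array, a gap of 0.86 of the range of the group. Its Ftcd level of -6.87 was followed by -5.91, a gap of 0.72 of the range, all at background. No injury response of a member was called as different between genotypes.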

How the results depend on the processing

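Of 242 values of a member probe under alternatives other than leaving out an array, 231 kept their direction and their side of the threshold, and of 400 with 1 array left out 385 did. The count of members past the threshold between genotypes was 1 with and without injury, Hal, which its choice and its passing of the filter through Myd88KO arrays fixed beforehand. It was 0 in both among probes well above background on all arrays, which leaves Hal out, and 2 between uninjured genotypes with array weights, Amdhd1 being the other. With injury in wild-type 1 member, Hnmt, was called with scan day as a block, with array weights and at an adjusted p under 0.05. The replicate block changed none of these counts (1 and 1 between genotypes, 0 with injury), and gave adjusted p = 0.085 for Amdhd1 between uninjured genotypes and 0.010 for Hnmt with injury in wild-type. Same-numbered arrays correlated best with each other in 3 of 5 pairs of uninjured genotypes. Direction turned only in differences that were not called. Normexp gave -0.026 for Amdhd1 with injury in Myd88KO and 0.57 for Hal in the difference of the responses. Quantile normalization gave -0.042 for Hdc between uninjured genotypes. Array weights gave -0.10 and -0.11 for Hdc between uninjured and injured genotypes, and -0.015 for Hdc and 0.28 for Hal in the difference of the responses. With single arrays left out, reported here as ranges, Hdc ran from -0.16 to 0.12 and from -0.12 to 0.79 between uninjured and injured genotypes and from -0.14 to 0.77 in the difference of the responses, Amdhd1 from -0.046 to 0.17 with injury in Myd88KO, and Hal from -0.35 to 0.16 in the difference of the responses. The cause of these shifts was not tested. Low signal limits Amdhd1 and wild-type Hal, and leaves Ftcd unmeasured.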

Other observations

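Around the other members, within 2 Mb in the array's positions, 0 of 95 tested probes near Ftcd, 1 of 67 near Hdc and 0 of 88 near Hnmt were called between uninjured genotypes, beside the 3 of 42 near Hal. The 1 near Hdc was Galk2, an N-acetylgalactosamine kinase, with a difference of -1.46.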
